A study of Mus musculus with 12 samples.

Results

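The response to etoposide was examined in Null MEFs, in 6 of the 12 libraries of an RNA-Seq experiment. Libraries were taken by the condition in their labels, with no measured value used: 3 from Null MEFs without etoposide (Null control) and 3 from Null MEFs given 100 µM etoposide for 8 h (Null etoposide). Null is the labels' word, taken here for the MEFs that the paper calls WT because only 1 other genotype was sequenced, an identity that the labels do not state. The remaining 6 libraries came from TFEB/TFE3 DKO MEFs, in which CRISPR editing inactivated Tfeb and Tfe3, with and without the same treatment. MEFs are mouse embryonic fibroblasts, kept as established lines that go on dividing, and each genotype was 1 line, so that line and genotype cannot be told apart. According to the paper its MEFs were immortalized with SV40, which can alter the stability of p53 and so confound results. The labels call the controls untreated and the paper describes DMSO. Neither states whether the replicates were separate cultures, so the p-values measure the spread between these samples. The libraries hold total RNA from which ribosomal RNA was depleted. Counts on genes were 83970210, 67654759 and 66956083 in Null control replicates 1, 2 and 3 and 75454495, 76125320 and 63286195 in Null etoposide replicates 1, 2 and 3, an order kept for all values below. Of 24421 genes listed by symbol, 15220 passed edgeR's expression filter and were tested. Levels are CPM after TMM scaling (counts relative to the scaled library size), log2 fold changes are etoposide over control, and a gene is called changed at an adjusted p under 0.05. The most abundant gene of a list is the highest in CPM, a scale that takes no account of gene length. Standard errors of log2 fold changes follow the sign ±, and each group has n = 3.

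Etoposide holds topoisomerase II on DNA that the enzyme has cut, and the cuts become double-strand breaks. Kinases that sense breaks, ATM among them, stabilize p53, which binds response elements in DNA and raises genes for cell cycle arrest, repair and death, and also Mdm2, whose product degrades p53. TFEB and TFE3, which the DKO MEFs lack, are transcription factors best known for their control of lysosomal and autophagy genes.

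Both factors were transcribed in all 6 Null libraries. Tfeb was at 38.9, 39.2 and 42.1 CPM in control and at 11.4, 10.2 and 10.4 CPM after etoposide, a fall of 1.91 on the log2 scale (adjusted p = 4.83e-13 by the quasi-likelihood test of edgeR with adjustment after Benjamini-Hochberg). Tfe3 fell less, from 115, 110 and 114 to 68.5, 69.6 and 68.1 CPM (-0.72 ± 0.04). The groups of libraries do not overlap for either gene. Mitf, another factor of this family, rose from 8.63, 9.14 and 8.94 to 23.2, 22.6 and 22.3 CPM (1.35 ± 0.06). Of 7 tested MiT/TFE and FOXO factors, 3 rose and 4 fell (42.9 and 57.1%, beside 42.3 and 37.2% of all genes), with a median log2 fold change of -0.15, and with library size alone 3 rose and 3 fell with a median of 0.02.

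The cells carried fibroblast transcripts throughout. Of 14 fibroblast markers, all tested, 11 fell after etoposide (78.6%, beside 37.2% of all genes), none rose, and the median was -1.02, beside 0.07 over all genes tested. Summed over the list, they made up 5749, 5635 and 5816 CPM in control and 3137, 3156 and 3179 CPM after etoposide. Vim, the intermediate filament vimentin and the most abundant of them, went from 2405, 2368 and 2397 to 1609, 1642 and 1643 CPM (-0.55 ± 0.03). Col1a2, a chain of type I collagen, fell from 1348, 1289 and 1380 to 520, 518 and 536 CPM (-1.35 ± 0.03). The mesenchymal transcription factors Twist2 (-1.89 ± 0.07) and Prrx1 (-1.47 ± 0.03) also fell, and in each case every etoposide library lay below every control library. Fewer cells of a type and less RNA per cell cannot be told apart in these libraries.

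Markers of other cell types were counted in the same way. Of 11 macrophage and leukocyte markers 6 could be tested, all 6 higher, but 2 of these were under the filter's level in at least 1 control library, which favours a rise among those tested. The other 4 rose as well, beside 35.5% of all tested genes at that level in each control library. Their summed level went from 18.2, 19.6 and 16.4 to 79.0, 78.5 and 78.4 CPM, most of it from Cd14, a receptor for bacterial lipopolysaccharide (2.01 ± 0.07). Cd68, a lysosomal membrane protein, rose from 1.59, 1.20 and 1.54 to 11.8, 11.5 and 12.5 CPM (3.04 ± 0.14). Ptprc, which encodes the leukocyte antigen CD45, was at 0.0246, 0 and 0 CPM in control and 0.342, 0.218 and 0.540 CPM after etoposide (5 ± 0.91, and 7.71 without Null control replicate 1). Itgam, an integrin of myeloid cells, stayed under 0.5 CPM in all 6 libraries (5.78 ± 1.01, and 7.69 without Null control replicate 1). Cd3e was at 0 in all 6 libraries, and Adgre1, Tyrobp and Fcer1g were among those that did not pass the filter.

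Of 9 endothelial markers 6 were tested and all were higher, but 5 of the 6 were under the filter's level in control, so that this count follows largely from the filter. Over the whole list the summed level was 1.28, 1.43 and 1.64 CPM in control and 7.16, 7.02 and 6.36 CPM after etoposide. Erg, an ETS factor and the most abundant, was at 1.01, 1.26 and 1.41 against 1.81, 1.91 and 1.56 CPM (0.55 ± 0.18), a call lost without Null control replicate 1 (0.40, adjusted p = 0.0817, the same edgeR test). Vwf, the clotting factor carrier of endothelium, rose from 0.0491, 0.0922 and 0.124 to 2.18, 2.40 and 2.38 CPM (4.74 ± 0.32). Of 9 epithelial markers 7 were tested, 2 of them under the filter's level in control, and 4 rose (57.1%, beside 42.3% of all genes) and 1, Krt8, fell (-0.77 ± 0.23), with sums of 17.2, 15.8 and 16.2 against 24.1, 24.3 and 26.7 CPM and Krt19 in the lead (0.64 ± 0.06). Of 12 myogenic, adipogenic and neural markers 5 were tested, and 3 rose (60.0%, beside 42.3% of all genes). Of these 3, 1 was under the filter's level in control. The adipogenic receptor gene Pparg was the 1 that fell (-1.40 ± 0.14). Of the 4 markers at the filter's level in each control library 2 rose and 1 fell. Of all tested genes at that level 35.5% rose, and a list of 4 is too short to set apart from this share. Sums over the 12 markers were 61.4, 62.4 and 64.5 against 99.9, 101 and 107 CPM, with the tubulin Tubb3 the most abundant and Myf5 at 0 throughout. Des, the muscle intermediate filament desmin, rose from 2.24, 2.01 and 2.08 to 33.2, 37.5 and 38.2 CPM (4.10 ± 0.09). Whether other cells had a part in these rises was not tested.

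Some transcripts set 1 library apart from the others of its group, and the genes named for this were picked after their values were seen. Null etoposide replicate 3 was low for Neat1, Malat1, Hspa8 and Kcnq1ot1 and lay 2-fold below both others of its group for none of the 9343 genes whose mean was 10 CPM or more. Neat1, the scaffold RNA of paraspeckles, was at 160, 148 and 208 CPM in control and 380, 341 and 177 CPM after etoposide (0.80 ± 0.23, and 1.06 without that library). Malat1, a nuclear RNA of speckles, was at 1117, 1109 and 1323 against 1613, 1502 and 851 CPM (0.16 ± 0.18, not past the threshold, and 0.39 with an adjusted p = 0.0128 without that library, the same edgeR test). Hspa8, the constitutive Hsc70 chaperone, was at 1794, 1781 and 1767 against 2798, 2903 and 1421 CPM (0.41 ± 0.16, and 0.67 without that library). The call for Hspa8 was lost with any of the other 5 libraries left out, lowest at 0.24 without Null etoposide replicate 2. In all 3 the groups overlap. Kcnq1ot1, the antisense RNA of the Kcnq1 locus, fell from 94.7, 84.4 and 120 to 36.4, 33.2 and 19.4 CPM with no overlap (-1.74 ± 0.18, and -1.53 without that library). Null control replicate 3 lay at least 2-fold below both other controls for 13 of those 9343 genes, among them Gna15, Matn4, Svop, Zfp750 and Hspa1b. In the other 5 libraries between 3 and 11 genes lay as far from both others of their group, in either direction. Without Null etoposide replicate 3, 12002 genes were called, and without Null control replicate 3, 12109.

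Etoposide changed the level of most genes tested. Of 15220, 12091 were called changed (79.4%), 6435 higher (42.3%) and 5656 lower (37.2%). With library size alone as the scale the split was 7803 higher and 4396 lower, and the median of all genes rose by 0.17. In 11753 of the called genes the 3 etoposide libraries did not overlap the 3 controls, beside 79.4% called, and over all genes tested 12203 (80.2%) had no overlap. Many of the changes were small: 4990 of the called genes (32.8% of those tested) differed by less than 1.5-fold. The large changes were mostly rises, with 2177 genes up 4-fold or more and 148 down by as much. Among the same 9343 genes of higher level the balance was the other way, with 2999 higher and 4911 lower, and 676 against 956 at 2-fold or more. Large rises therefore lay mostly among genes of low level and falls among genes of high level. A gene can pass the filter through the etoposide libraries alone, and then a rise is favoured by the filter. By a count added after seeing the data, 2399 tested genes were under the filter's level in at least 1 Null control library, and 1888 of them rose. Of the other 12821, 4547 rose (35.5%) and 5646 fell.

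The number of genes detected grew to match. At least 0.1 CPM was reached by 13534, 13527 and 13539 genes in control and 15796, 15788 and 15672 after etoposide, and at least 100 CPM by 2579, 2553 and 2577 against 2433, 2442 and 2422. Genes were also binned by their mean level in the DKO control libraries, which take no part in the comparison, a grouping chosen after seeing the data. The 8221 symbols with no count there summed to 76.4, 79.4 and 78.0 CPM in Null control and 533, 519 and 529 CPM in Null etoposide, a 6.77-fold rise, and 294, 265 and 271 of them against 1935, 1926 and 1734 were above 3 counts. At 0.1 to under 1 CPM in DKO control the sum rose 2.19-fold, and at 1 to under 10 CPM 1.57-fold. The 2826 symbols at 100 CPM or more fell from 744954, 752991 and 747425 to 620594, 621775 and 622119 CPM, to 0.83 of control. The lower the level of a bin in these other cells, the larger was its rise after etoposide.

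**Figure D1:**
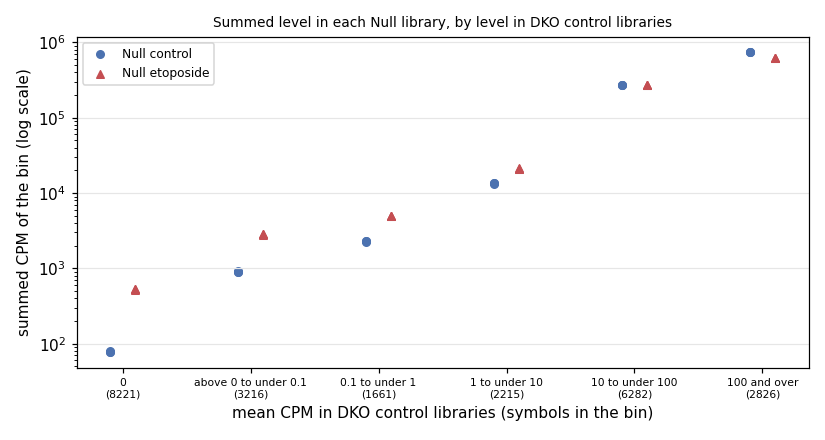
Summed CPM in each Null library of symbols grouped by mean level in the DKO control libraries. Circles are the 3 Null control libraries and triangles the 3 Null etoposide libraries; the axis is logarithmic. The groups are apart in the bins of low level, meet at 10 to under 100 CPM and cross at 100 CPM and over.

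The share of reads on no feature rose as well. It was 22.5, 24.2 and 22.9% in Null control and 27.3, 26.3 and 25.1% in Null etoposide, against 20.2 to 22.3% in the DKO libraries of both treatments. Rn45s, the ribosomal RNA precursor left after depletion, took 2.20, 2.82 and 2.89% of the counts on genes in control and 4.37, 3.81 and 4.28% after etoposide. It was the largest gain in CPM of any gene, from 22679, 29272 and 29930 to 40282, 35075 and 39507 (0.49 ± 0.10), followed by Rmrp, the RNA of RNase MRP (0.56 ± 0.06). The RNA of RNase P, Rpph1, gained as well (0.27 ± 0.05), and its exons overlap Ccnb1ip1 on the same strand. What the reads on no feature hold was not tested, nor was the part of these gains in the other results. With Rn45s, Rmrp and Rpph1 left out of the table, a fit added after seeing the data, 12105 genes were called.

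Genes of the p53 pathway come next. Trp53 itself, which encodes p53, changed little, from 146, 135 and 138 to 159, 168 and 167 CPM (0.24 ± 0.04, adjusted p = 5.91e-05, the same edgeR test). Mdm2, the ligase that degrades p53, went from 126, 122 and 115 to 1814, 1897 and 1790 CPM. Ccng1 (cyclin G1), a p53 target that feeds back on Mdm2 through a phosphatase, went from 118, 116 and 115 to 2093, 2120 and 2094 CPM, a log2 fold change of 4.18 ± 0.04 (adjusted p = 9.89e-21, the same edgeR test). For both, every etoposide library lay more than 10-fold above every control library. Ppm1d, the phosphatase Wip1 that ends the damage signal, rose from 30.9, 31.8 and 32.0 to 103, 103 and 107 CPM (1.72 ± 0.04). Mdm4, a partner of Mdm2, was at 70.5, 71.1 and 74.9 against 78.5, 78.7 and 69.3 CPM with overlapping groups (0.07 ± 0.05, adjusted p = 0.201, and 0.11 with an adjusted p = 0.0174 without Null etoposide replicate 3, the same edgeR test). The p53 family member Trp73 was near absent in control, at 0.0123, 0.0154 and 0 CPM, and reached 2.46, 2.70 and 2.61 CPM (7.86 ± 0.46), and its exons overlap Trp73os on the opposite strand. Of 16 genes for p53 and its regulators 9 rose and 6 fell (56.2 and 37.5%, beside 42.3 and 37.2% of all genes), with a median of 0.29. Among those that fell were the kinase Hipk2 (-1.04 ± 0.07), the ligase Rfwd2 (-0.92 ± 0.04) and Trp53bp1, which encodes 53BP1 (-0.91 ± 0.05).

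The promoters of Ccng1, Cdkn1a, Gtse1 and Mst1 are shown because each holds a match to the p53 response element and each gene rose. They run from 250 bases before to 50 after the gene's start, are from RefSeq on build GRCm38.p6 and read along the gene's own strand, and capitals mark the match, allowing up to 2 mismatches and a spacer of up to 13 bases. Ccng1 is at chr11:40755237-40755536 on the minus strand (1 mismatch, no spacer) and Cdkn1a at chr17:29090729-29091028 on the plus strand (no mismatch, spacer of 12). In Cdkn1a the second marked stretch also forms a match with the bases directly after it, tgacatgttc, left in lower case. That match has 1 mismatch and no spacer. The counts of matches with no spacer may leave out such overlapping ones. Gtse1, whose product moves p53 out of the nucleus, is at chr15:85859696-85859995 on the plus strand (1 mismatch, no spacer), and Mst1, the growth factor MSP, at chr9:108080186-108080485 on the plus strand (2 mismatches, no spacer).
Ccng1: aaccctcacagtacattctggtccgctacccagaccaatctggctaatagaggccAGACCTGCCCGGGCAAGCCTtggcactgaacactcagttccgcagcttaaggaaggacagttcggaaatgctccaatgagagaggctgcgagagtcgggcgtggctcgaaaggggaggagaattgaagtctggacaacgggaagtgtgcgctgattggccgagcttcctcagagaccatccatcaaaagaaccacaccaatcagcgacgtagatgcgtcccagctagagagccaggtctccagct
Cdkn1a: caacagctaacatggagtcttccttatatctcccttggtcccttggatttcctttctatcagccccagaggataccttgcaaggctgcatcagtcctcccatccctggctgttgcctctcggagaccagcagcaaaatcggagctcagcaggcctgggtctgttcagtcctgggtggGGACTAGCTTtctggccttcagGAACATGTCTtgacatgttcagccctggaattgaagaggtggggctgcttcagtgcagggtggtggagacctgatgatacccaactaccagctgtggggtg
Gtse1: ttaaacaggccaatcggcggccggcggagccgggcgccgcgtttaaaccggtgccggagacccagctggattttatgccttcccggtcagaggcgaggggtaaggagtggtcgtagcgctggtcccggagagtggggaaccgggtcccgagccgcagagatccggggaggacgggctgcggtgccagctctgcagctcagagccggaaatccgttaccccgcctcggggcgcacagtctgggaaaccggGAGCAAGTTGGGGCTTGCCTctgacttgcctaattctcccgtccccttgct
Mst1: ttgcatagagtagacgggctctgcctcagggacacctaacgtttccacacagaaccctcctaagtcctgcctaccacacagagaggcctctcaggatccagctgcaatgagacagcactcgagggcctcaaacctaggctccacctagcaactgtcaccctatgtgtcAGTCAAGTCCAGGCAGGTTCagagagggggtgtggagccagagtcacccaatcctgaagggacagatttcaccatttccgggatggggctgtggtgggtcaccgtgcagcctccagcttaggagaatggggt
Of the 51 p53 target genes listed, 42 had a promoter in the table, and 8 of their 54 promoters held a match (14.8%), beside 1342 of all 32851 promoters (4.09%). Among genes at least 2-fold higher the share was 5.08% and among those at least 2-fold lower 3.28%. Matches with no spacer were rarer, 96 promoters in all (0.292%), 0.671% of those of genes at least 2-fold higher and none of those of genes at least 2-fold lower. A match describes the sequence and shows no binding.

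The listed p53 targets rose almost throughout. All 51 were tested, 44 rose and 6 fell (86.3 and 11.8%, beside 42.3 and 37.2% of all genes) and the median was 1.94, and their summed level went from 3134, 3110 and 2985 to 12578, 12661 and 12610 CPM. Cdkn1a, which encodes the kinase inhibitor p21, went from 71.5, 65.6 and 60.1 to 498, 511 and 510 CPM. Trp53inp1, a cofactor of p53 in stress, rose from 12.8, 11.4 and 10.4 to 704, 677 and 656 CPM (5.87 ± 0.08). Neither gene had a library near the other group. Gtse1, named for its promoter after its values were seen, rose from 50.9, 52.4 and 51.1 to 408, 404 and 404 CPM (2.98 ± 0.03). Dcxr, a sugar reductase, rose from 4.44, 4.67 and 4.28 to 122, 125 and 139 CPM (4.85 ± 0.08), and Cd80, a ligand for T cells, from 0.602, 0.446 and 0.633 to 14.4, 16.3 and 14.2 CPM (4.73 ± 0.18). None of the 6 targets that fell did so by 2-fold. Plk3, a stress kinase, was lowest at -0.98 ± 0.05, followed by the kinase Dyrk3 (-0.45 ± 0.05) and Tigar, a regulator of sugar metabolism (-0.38 ± 0.06).

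**Figure D2:**
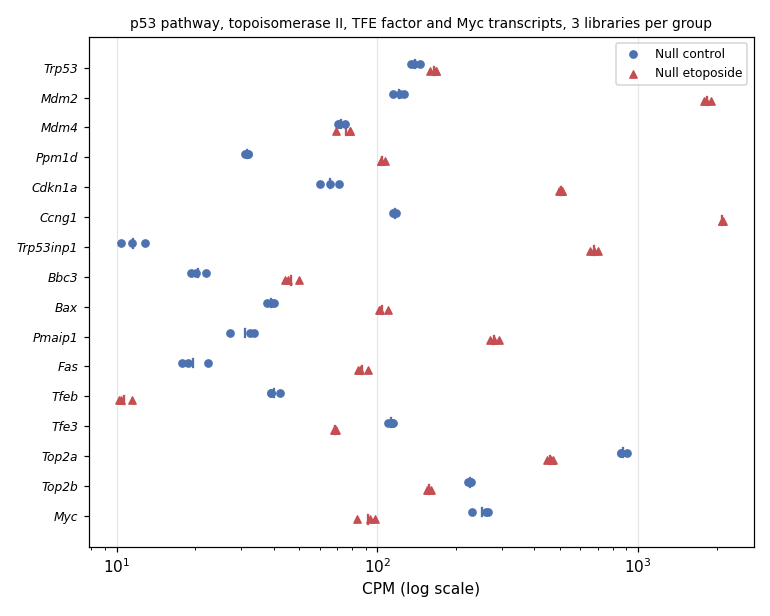
CPM of p53 pathway, topoisomerase II, TFE factor and Myc transcripts in each Null library, on a logarithmic axis. Circles are the 3 control and triangles the 3 etoposide libraries, and short lines are group means. Only for Mdm4 do the groups overlap.

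Genes of apoptosis changed in both directions. Pmaip1, the BH3-only protein Noxa, rose from 32.4, 33.5 and 27.1 to 279, 293 and 271 CPM (3.18 ± 0.06, adjusted p = 1.12e-17, the same edgeR test). Bbc3, the BH3-only protein Puma, was at 20.2, 19.2 and 22 against 44.1, 45.2 and 50 CPM, and Bax, which opens the mitochondrial outer membrane, at 39.4, 37.6 and 40.2 against 101, 102 and 110 CPM. All 3 death genes had separate groups, as had 80.2% of all genes tested. Bax shares exon sequence with Gm45808 on its strand. Of 19 tested BCL2 family genes 10 rose (52.6%, beside 42.3% of all genes) and 7 fell (36.8%, beside 37.2%), with a median of 0.26, and 3 of those that rose were under the filter's level in control. Both promoters and inhibitors of death were on each side. The survival gene Mcl1 rose from 446, 445 and 446 to 601, 593 and 614 CPM (0.44 ± 0.04), Bcl2 fell from 18.5, 17.4 and 17.6 to 6.74, 9.09 and 8.49 CPM (-1.14 ± 0.08), and the death genes Bid (-0.99 ± 0.04) and Bok (-1.01 ± 0.06) fell. Bcl2l15 (4.51 ± 0.23) and Bcl2l14, the latter under 1 CPM in all libraries, were among those the filter favours (4.69 ± 0.67, and 5.44 without Null control replicate 1).

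Among 25 tested death receptors, adaptors and caspases 13 rose and 5 fell (52.0 and 20%, beside 42.3 and 37.2% of all genes), with a median of 0.22. Fas, the death receptor, rose from 22.3, 18.8 and 17.8 to 84.0, 92.1 and 85.7 CPM (2.15 ± 0.06). Apaf1, the scaffold of the apoptosome, rose from 59.7, 58.6 and 55.7 to 224, 213 and 211 CPM (1.90 ± 0.04). The effector caspase Casp6 rose as well (1.45 ± 0.06). Casp9, the caspase that the apoptosome activates, fell (-0.59 ± 0.08), as did Casp12 (-1.13 ± 0.07) and the inhibitor of apoptosis Birc3 (-1.05 ± 0.06). Exons of Casp9 overlap Cela2a and Ctrc on the opposite strand.

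Of 20 tested DNA damage sensors and checkpoint kinases 7 rose and 9 fell (35.0 and 45.0%, beside 42.3 and 37.2% of all genes), with a median of -0.02, and with library size alone 11 rose and 6 fell with a median of 0.14. Chek2, the checkpoint kinase under ATM, rose (1.53 ± 0.06), and Rad50, of the complex that binds broken ends, went from 68.0, 66.9 and 63.5 to 106, 102 and 96.2 CPM (0.62 ± 0.05). Its partner Nbn fell from 83.3, 83.3 and 77.2 to 53, 53.8 and 52.9 CPM (-0.61 ± 0.05). Of the ubiquitin ligases that act on chromatin at breaks Rnf168 was higher (0.46 ± 0.04) and Rnf8 lower (-0.50 ± 0.09). H2afx, the histone variant marked at breaks and the most abundant of the list, fell from 509, 530 and 546 to 396, 395 and 408 CPM (-0.40 ± 0.04).

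Of 40 double-strand break repair genes 19 rose and 12 fell (47.5 and 30%, beside 42.3 and 37.2% of all genes), with a median of 0.14, and with library size alone 25 rose and 7 fell. The largest rises were of the recombination genes Xrcc3 (1.88 ± 0.08) and Rad51d (1.79 ± 0.06) and of Dna2, a nuclease that resects ends (1.58 ± 0.05). Rad51b, also of recombination, fell (-1.08 ± 0.12), together with the Fanconi anemia genes Fancf (-1.10 ± 0.07) and Fancc (-0.72 ± 0.08). Rif1, which guards ends from resection and was the most abundant, fell from 359, 360 and 364 to 232, 229 and 209 CPM (-0.69 ± 0.04). Exons of Xrcc3 overlap Klc1 and those of Fancf overlap Gas2, both on the opposite strand, and the strand setting of the counting is not given in the sources used here. The paper names a stranded kit for making the libraries.

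Transcripts of both forms of topoisomerase II, on which the drug acts, fell. Top2a, the topoisomerase II of dividing cells, went from 907, 861 and 858 to 461, 470 and 445 CPM (-0.93 ± 0.04, adjusted p = 1.83e-12, the same edgeR test). Top2b, the form made also in resting cells, went from 229, 223 and 227 to 158, 160 and 155 CPM (-0.52 ± 0.04). Top1, a topoisomerase of another type, fell more, from 132, 137 and 123 to 64.8, 64.6 and 57.6 CPM (-1.07 ± 0.05). Every etoposide library was below every control library for these 3 genes, and 80.2% of all genes tested had no overlap in one direction or the other. Tdp2, the phosphodiesterase that frees DNA ends from trapped topoisomerase II, rose from 37.9, 38.8 and 37.4 to 69.2, 72.7 and 71.3 CPM (0.90 ± 0.04). Top3b (0.59 ± 0.05) and the mitochondrial Top1mt (1.05 ± 0.06) rose. Over the 8 genes of this list 3 rose and 4 fell (37.5 and 50%, beside 42.3 and 37.2% of all genes), with a median of -0.12, and with library size alone 3 rose and 3 fell with a median of 0.04.

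Cell cycle genes were listed by phase. Of 26 G1 and S phase cyclins and E2F genes 13 rose and 6 fell (50 and 23.1%, median 0.16), and of 48 DNA replication genes 27 rose and 11 fell (56.2 and 22.9%, median 0.13), beside 42.3 and 37.2% of all genes. Under library size alone 19 rose and 4 fell in the first list (median 0.33) and 36 and 4 in the second (median 0.30). Ccne2, a cyclin E, rose from 78.7, 78.8 and 75.4 to 259, 283 and 264 CPM (1.79 ± 0.05), and Ccne1 likewise (1.46 ± 0.05). Cdk6, the kinase of cyclin D, fell from 29.4, 27.8 and 30.4 to 6.36, 6.63 and 6.75 CPM (-2.15 ± 0.08), whereas its relative Cdk4, the most abundant of the list, was at 468, 467 and 480 against 439, 462 and 471 CPM (-0.05 ± 0.03, not past the threshold). Rb1, the retinoblastoma gene, rose (1.10 ± 0.06). Rrm2, the ribonucleotide reductase subunit that supplies DNA precursors, rose from 134, 143 and 127 to 357, 356 and 337 CPM (1.38 ± 0.04), and Pcna, the sliding clamp, from 517, 500 and 511 to 746, 689 and 740 CPM (0.51 ± 0.04). The catalytic and primase subunits of DNA polymerase alpha fell, Pola1 from 147, 140 and 143 to 70.0, 71.3 and 63.7 CPM (-1.07 ± 0.05) and Prim2 by 0.87 on the log2 scale. Of 7 CDK inhibitors, 3 rose and 3 fell (42.9 and 42.9%, beside 42.3 and 37.2% of all genes; median -0.18). Behind Cdkn1a came Cdkn1c (1.74 ± 0.11), and Cdkn2a (-0.49 ± 0.04), Cdkn1b (-0.44 ± 0.05) and Cdkn2b (-0.38 ± 0.05) fell.

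Of 58 G2 and mitosis genes 42 fell and 10 rose (72.4 and 17.2%, beside 37.2 and 42.3% of all genes), with a median of -0.37. The promoters of Plk1, Cdk1 and Prc1 are shown because they hold the cell cycle homology region (CHR, TTTGAA), through which the DREAM complex is known to act on such genes. They are from the same RefSeq table and build and read along the gene's strand, and capitals mark TTTGAA. Plk1, the polo-like kinase, is at chr7:122159185-122159484 on the plus strand, Cdk1, the kinase that starts mitosis, at chr10:69352863-69353162 on the minus strand with 2 copies, and Prc1, which bundles microtubules of the spindle midzone, at chr7:80294201-80294500 on the plus strand.
Plk1: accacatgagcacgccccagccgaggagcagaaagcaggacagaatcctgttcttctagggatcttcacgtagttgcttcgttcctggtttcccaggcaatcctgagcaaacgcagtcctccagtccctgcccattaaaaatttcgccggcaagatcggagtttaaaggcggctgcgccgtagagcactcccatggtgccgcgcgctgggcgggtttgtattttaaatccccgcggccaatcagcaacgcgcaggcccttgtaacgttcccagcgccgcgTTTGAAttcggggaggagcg
Cdk1: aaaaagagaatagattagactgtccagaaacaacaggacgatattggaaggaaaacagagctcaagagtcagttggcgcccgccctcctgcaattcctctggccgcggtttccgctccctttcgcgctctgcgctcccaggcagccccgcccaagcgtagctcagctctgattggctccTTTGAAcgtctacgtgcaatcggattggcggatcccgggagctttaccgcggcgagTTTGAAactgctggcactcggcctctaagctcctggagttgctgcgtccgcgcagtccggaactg
Prc1: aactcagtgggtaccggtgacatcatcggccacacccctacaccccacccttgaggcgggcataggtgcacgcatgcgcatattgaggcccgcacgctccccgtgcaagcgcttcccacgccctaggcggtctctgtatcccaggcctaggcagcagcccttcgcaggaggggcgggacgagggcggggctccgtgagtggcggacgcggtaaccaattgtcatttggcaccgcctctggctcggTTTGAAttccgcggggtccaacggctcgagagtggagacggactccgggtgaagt
On either strand the CHR was found in 38 of 51 promoters of these genes (74.5%), which cover 47 of them, beside 17.9% of all promoters and 12.1% of those of genes tested. CCAAT, bound by NF-Y, was found in 68.6% beside 37.4% of all. Whether DREAM or NF-Y had a part in the falls was not tested. Prc1 fell from 241, 243 and 239 to 92.9, 99.7 and 103 CPM (-1.29 ± 0.04). Plk1 fell from 44.9, 46.7 and 44.4 to 24.2, 24.9 and 22.6 CPM (-0.92 ± 0.06) and Cdk1 from 292, 292 and 291 to 178, 185 and 186 CPM (-0.67 ± 0.03), both named for their promoters after their values were seen. Cdc25b, the phosphatase that activates Cdk1, fell by 1.42 and Nusap1, a spindle protein, by 1.23 on the log2 scale. Exceptions were Spc25, a kinetochore gene, which rose from 33.6, 31.6 and 29.7 to 93.0, 97.1 and 96.7 CPM (1.59 ± 0.05), the kinesin Kif18b (1.09 ± 0.04) and the cyclin Ccnf (0.99 ± 0.05).

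The replication-dependent histones had the lowest median of all the gene lists. Of 59 tested, 51 fell and 2 rose (86.4 and 3.39%, beside 37.2 and 42.3% of all genes), with a median of -1.31, and 42 fell at least 2-fold. Of all genes tested, 8.1% were at least 2-fold lower. Their sum went from 17071, 19045 and 18490 to 6447, 7292 and 7298 CPM. Hist1h1a, a linker histone, fell from 870, 913 and 846 to 230, 253 and 269 CPM (-1.81 ± 0.05). Hist1h2bl varied between replicates, at 310, 751 and 508 against 36.6, 149 and 51.1 CPM (-2.72 ± 0.41, from -3.58 without Null etoposide replicate 2 to -2.38 without Null control replicate 2). Near-identical copies share reads in this family, so single members are uncertain. The exceptions, Hist2h2be (0.88 ± 0.14) and Hist3h2bb-ps (0.45 ± 0.13), were under 10 CPM. No promoter of the family was in the table.

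**Figure D3:**
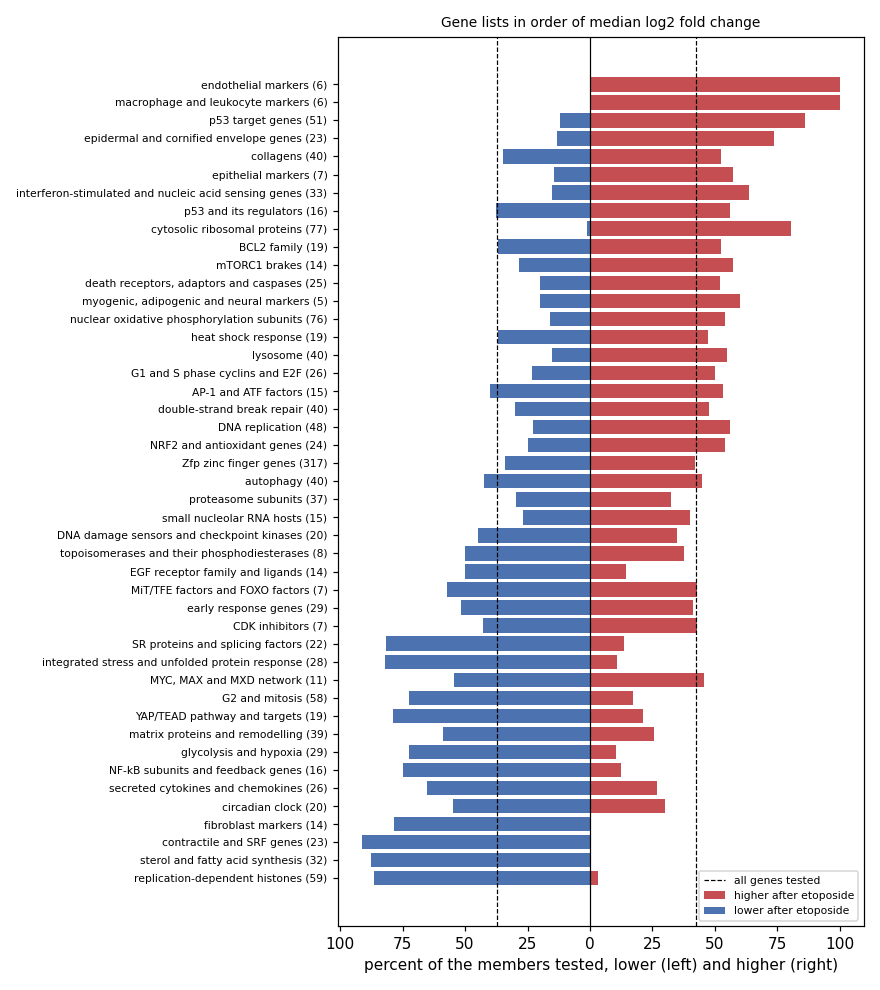
Percent of the tested members of each gene list that rose (right) and fell (left) after etoposide, in order of the median log2 fold change, with the number tested in brackets. Dashed lines give the same percentages over all genes tested.

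Of 29 early response genes 12 rose (41.4%, beside 42.3% of all genes) and 15 fell (51.7%, beside 37.2%), with a median of -0.18. Dusp1, a MAP kinase phosphatase, rose from 21.5, 21.3 and 20 to 148, 161 and 173 CPM (2.94 ± 0.05), and the antiproliferative Btg2 from 101, 94.3 and 83.9 to 472, 480 and 476 CPM (2.35 ± 0.06). Klf9 fell from 91.2, 87.2 and 89.4 to 21.2, 20.1 and 21.7 CPM (-2.09 ± 0.04), with Egr3 (-1.78 ± 0.09) and Egr2 (-1.74 ± 0.15). Of 15 AP-1 and ATF factors 8 rose and 6 fell (53.3 and 40.0%, beside 42.3 and 37.2% of all genes; median 0.15). Fos rose from 28.9, 25.6 and 20 to 83.8, 91.1 and 93.2 CPM (1.84 ± 0.11) and Jun from 141, 142 and 130 to 358, 361 and 359 CPM (1.38 ± 0.05), and their relatives Fosl2 (-1.13 ± 0.05) and Maf (-1.81 ± 0.08) fell. Exons of Jun overlap Junos on the opposite strand.

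Myc, the growth regulator with a short-lived transcript, fell from 265, 260 and 231 to 98.0, 93.2 and 83.6 CPM (-1.46 ± 0.06, adjusted p = 1.43e-13, the same edgeR test). Every etoposide library lay under every control library. In its network of 11 genes 5 rose and 6 fell (45.5 and 54.5%, beside 42.3 and 37.2% of all genes), with a median of -0.33. The repressor Mxd1 rose (1.20 ± 0.07) and so did Mxi1 (0.85 ± 0.06), whereas the repressors Mnt (-1.42 ± 0.08) and Mga (-0.75 ± 0.05) fell.

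NF-kB genes fell. Of 16 subunits and feedback genes 12 fell and 2 rose (75 and 12.5%, beside 37.2 and 42.3% of all genes), with a median of -0.52. Nfkb1, the p50 subunit, went from 384, 361 and 391 to 86.5, 91.5 and 86.6 CPM (-2.10 ± 0.04), and the inhibitor Nfkbie from 129, 117 and 128 to 33.9, 33.7 and 34.5 CPM (-1.87 ± 0.04). Nfkbia, an inhibitor that NF-kB itself induces, rose from 128, 117 and 126 to 204, 223 and 229 CPM (0.82 ± 0.04). Nfkb2 hardly changed (-0.13 ± 0.03), and with library size alone its value was 0.04. Of 26 tested cytokines and chemokines 17 fell and 7 rose (65.4 and 26.9%, beside 37.2 and 42.3% of all genes; median -0.57). Ccl20, a chemokine for lymphocytes, fell from 22.8, 19.3 and 21.3 to 3.42, 3.03 and 3.32 CPM (-2.70 ± 0.07), and Csf1, the macrophage growth factor and most abundant of the list, from 847, 822 and 792 to 335, 337 and 336 CPM (-1.29 ± 0.03). The largest rises of the list were of Gdf15 (2.31 ± 0.14), Csf2 (2.29 ± 0.19) and Il6 (1.70 ± 0.25), each under 10 CPM in all 6 libraries. Il1b, Tnf, Ccl8, Cxcl2 and Cxcl3 did not pass the filter.

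Interferon-stimulated and nucleic acid sensing genes numbered 33, of which 21 rose and 5 fell (63.6 and 15.2%, beside 42.3 and 37.2% of all genes), with a median of 0.32. Zbp1, a sensor of nucleic acid in Z form, rose from 3.33, 3.38 and 3.18 to 10.4, 9.49 and 11.6 CPM (1.67 ± 0.10), and Usp18, which restrains interferon signalling, from 53.3, 50.1 and 49.7 to 114, 103 and 123 CPM (1.15 ± 0.06). The transcription factor Stat2 fell (-0.44 ± 0.06). Mx1 fell too (-0.56 ± 0.13). The list's most abundant gene, Ifi27, was at 199, 185 and 192 against 186, 189 and 222 CPM, with overlap and not past the threshold (0.05 ± 0.05).

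Of 40 tested lysosomal genes 22 rose and 6 fell (55.0 and 15.0%, beside 42.3 and 37.2% of all genes), with a median of 0.16 beside 0.07, and 2 of those that rose were under the filter's level in control. With library size alone 33 rose and none fell, with a median of 0.33. The promoter of Ctsf, which encodes cathepsin F, is shown because it holds an E-box (CACGTG, in capitals), the core of the element that TFEB and TFE3 are known to bind. It is from the same RefSeq table and build, at chr19:4854915-4855214 on the plus strand.
Ctsf: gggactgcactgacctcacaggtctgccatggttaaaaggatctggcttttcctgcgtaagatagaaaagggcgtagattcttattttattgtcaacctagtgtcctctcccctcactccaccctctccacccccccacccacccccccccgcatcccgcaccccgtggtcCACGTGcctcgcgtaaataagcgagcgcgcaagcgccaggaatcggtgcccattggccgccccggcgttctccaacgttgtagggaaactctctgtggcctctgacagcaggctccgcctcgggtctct
An E-box was found in 13 of 32 promoters of lysosomal genes (40.6%), beside 7.15% of all promoters and 9.38% of those of genes tested. Ctsf rose from 2.76, 2.83 and 2.29 to 48.2, 46.8 and 52.0 CPM (4.22 ± 0.08, adjusted p = 1.68e-17, the same edgeR test). Ctsh, a further cathepsin, rose from 1.45, 1.58 and 1.30 to 8.40, 8.87 and 8.88 CPM (2.59 ± 0.14). Laptm5, a lysosomal membrane protein of blood cells, was at 0.0123, 0 and 0.0154 CPM in control and 2.43, 1.54 and 2.45 CPM after etoposide (7.57 ± 0.55). Psap, the prosaposin precursor and most abundant of the list, was at 746, 714 and 732 against 715, 727 and 752 CPM (0.00 ± 0.03, not past the threshold). The enzyme gene Hexa fell slightly (-0.16 ± 0.04), and with library size alone it was at 0.00.

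Of 40 autophagy genes 18 rose and 17 fell (45.0 and 42.5%, beside 42.3 and 37.2% of all genes) with a median of 0.05, and with library size alone 22 rose and 11 fell with a median of 0.22. Ulk1, the kinase that starts autophagy, rose from 22.8, 24.2 and 24.4 to 139, 130 and 133 CPM (2.49 ± 0.07), and Atg14, of the lipid kinase complex that follows it, rose as well (1.19 ± 0.06). Uvrag, another partner of that lipid kinase, fell from 89.7, 86.3 and 87.0 to 20, 17.8 and 18.5 CPM (-2.22 ± 0.05). The mitophagy receptor Bnip3 fell (-1.10 ± 0.06). Sqstm1, the receptor p62 and most abundant of the list, fell from 547, 533 and 530 to 419, 411 and 430 CPM (-0.35 ± 0.03).

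Of 14 genes that restrain mTORC1, 8 rose and 4 fell (57.1 and 28.6%, beside 42.3 and 37.2% of all genes; median 0.22). Ddit4l, a relative of REDD1, rose from 0.836, 0.415 and 0.448 to 60.0, 60.2 and 60.7 CPM (6.68 ± 0.13, adjusted p = 1.41e-17, the same edgeR test). Ddit4, which encodes REDD1, rose from 182, 176 and 177 to 388, 395 and 404 CPM (1.15 ± 0.03). Gatsl3, which encodes the arginine sensor CASTOR1, rose too (2.16 ± 0.08). These 3 had no overlap between groups, as had 80.2% of all genes tested. Deptor, which binds mTOR itself, fell from 16.4, 19.3 and 19.1 to 8.19, 7.78 and 7.28 CPM (-1.23 ± 0.09).

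Genes of the integrated stress and unfolded protein responses fell, 23 of 28 lower and 3 higher (82.1 and 10.7%, beside 37.2 and 42.3% of all genes) with a median of -0.32. Under library size alone 17 fell and 5 rose, with a median of -0.15. Atf4, the transcription factor of the integrated stress response, fell from 1505, 1466 and 1460 to 620, 628 and 650 CPM (-1.22 ± 0.03). The largest falls of the list were of its targets Chac1, from 317, 305 and 302 to 47.0, 47.5 and 55.0 CPM (-2.63 ± 0.06), and Trib3, from 215, 212 and 215 to 35.8, 34.7 and 39.8 CPM (-2.54 ± 0.05). Xbp1, the factor spliced in the unfolded protein response, fell from 177, 170 and 169 to 30.9, 29.6 and 31.8 CPM (-2.49 ± 0.04). All 4 had separate groups, as had 80.2% of all genes tested. Edem1, which hands misfolded glycoproteins over for destruction, rose (0.58 ± 0.04). The chaperone Calr, most abundant of the list, was at 1250, 1163 and 1186 against 1084, 1127 and 1134 CPM with groups nearly touching (-0.11 ± 0.04), a call lost without Null control replicate 1 (-0.08, adjusted p = 0.0719, the same edgeR test) or Null etoposide replicate 1 and turned to 0.06 with library size alone.

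Of 19 heat shock genes 9 rose (47.4%, beside 42.3% of all genes) and 7 fell (36.8%, beside 37.2%), with a median of 0.16. Dnajb1, a cochaperone of Hsp70, rose from 125, 127 and 111 to 298, 283 and 333 CPM (1.33 ± 0.06). The inducible Hsp70 genes varied between replicates. Hspa1b was at 19.2, 28.8 and 4.54 against 67.3, 45.3 and 72.6 CPM (1.81 ± 0.39), low in Null control replicate 3. Hspa1a was at 5.89, 6.47 and 0.340 against 5.21, 10.8 and 15.7 CPM, with overlap (1.27 ± 0.54), and its call was lost without that library (0.75, adjusted p = 0.154, the same edgeR test) and without Null etoposide replicate 2 or 3. Hsf1, the heat shock transcription factor, fell from 76.8, 76.6 and 79.1 to 52.6, 52.3 and 54.6 CPM (-0.54 ± 0.04). Hsp90ab1, most abundant of the list, was at 3494, 3430 and 3328 against 3514, 3634 and 3527 CPM and not past the threshold (0.06 ± 0.03).

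Of 24 NRF2 and antioxidant genes 13 rose and 6 fell (54.2 and 25%, beside 42.3 and 37.2% of all genes; median 0.10). Nqo1, a quinone reductase, rose from 34.9, 33.4 and 35.3 to 80.9, 83.3 and 80.7 CPM (1.24 ± 0.05), and the ferritin chains Fth1 (0.54 ± 0.04) and Ftl1 (0.52 ± 0.05) rose. Slc7a11, the cystine carrier, fell from 88.5, 83.6 and 91.9 to 32.9, 28.9 and 26.2 CPM (-1.58 ± 0.06). Nfe2l2, which encodes NRF2, fell too (-0.52 ± 0.04).

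Sterol and fatty acid synthesis fell with no member higher, although with library size alone 1 was higher and 27 lower. Of 32 genes 28 fell (87.5%, beside 37.2% of all genes), 17 of them at least 2-fold (beside 8.1% of all genes), with a median of -1.13. The promoter of Lss, which encodes lanosterol synthase, is shown because it holds CCAAT, bound by NF-Y, which is known to act beside SREBP in these genes. It is from the same RefSeq table and build, at chr10:76531355-76531654 on the plus strand, and capitals mark CCAAT, which lies on the other strand and reads here as ATTGG.
Lss: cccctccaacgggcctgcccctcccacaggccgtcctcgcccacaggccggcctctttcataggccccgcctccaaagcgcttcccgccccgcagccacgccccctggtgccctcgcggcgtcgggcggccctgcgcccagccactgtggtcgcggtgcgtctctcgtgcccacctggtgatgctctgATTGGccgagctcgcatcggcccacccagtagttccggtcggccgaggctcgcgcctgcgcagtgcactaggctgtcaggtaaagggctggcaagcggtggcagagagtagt
CCAAT was found on either strand in 20 of 27 promoters of the list (74.1%), beside 37.4% of all promoters. A part of NF-Y or SREBP in the falls was not tested. Lss, named after its values were seen, fell from 116, 106 and 116 to 31.3, 32.6 and 33.0 CPM (-1.80 ± 0.04). Sqle, squalene epoxidase, fell from 278, 255 and 277 to 57.9, 61.5 and 66.4 CPM (-2.12 ± 0.05, adjusted p = 6.8e-17, the same edgeR test), and Scd2, a fatty acid desaturase, from 1284, 1302 and 1242 to 392, 395 and 391 CPM (-1.70 ± 0.04). Sterol and fatty acid genes therefore fell together, and the summed level of the list went from 7566, 7320 and 7494 to 2939, 2959 and 3009 CPM.

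Glycolysis and hypoxia genes fell, 21 of 29 lower and 3 higher (72.4 and 10.3%, beside 37.2 and 42.3% of all genes) with a median of -0.41. Hk2, hexokinase 2, fell from 119, 120 and 121 to 22.5, 20.5 and 17.5 CPM (-2.57 ± 0.06), and Vegfa, the vascular growth factor, from 640, 610 and 606 to 178, 171 and 169 CPM (-1.84 ± 0.04). Pkm, pyruvate kinase and most abundant of the list, fell less (-0.39 ± 0.04). Egln3, a prolyl hydroxylase that marks HIF for destruction, rose from 3.00, 2.80 and 2.86 to 12.7, 12.2 and 11.8 CPM (2.09 ± 0.10). Of 76 nuclear genes for oxidative phosphorylation, 41 rose and 12 fell (53.9 and 15.8%, beside 42.3 and 37.2% of all genes; median 0.16), and with library size alone 59 and 6. Of the rises 2 were of genes under the filter's level in control. Ndufb6, a subunit of complex I, rose from 50, 51.0 and 50.7 to 115, 120 and 122 CPM (1.24 ± 0.04), with its exons overlapping Smim27 on the opposite strand. Atp5b, of ATP synthase and most abundant of the list, was at 1852, 1824 and 1850 against 1806, 1837 and 1890 CPM (0.00 ± 0.03, not past the threshold). Genes of the mitochondrial genome were not in the table.

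Ribosomal protein genes rose by little but almost throughout, 62 of 77 higher and 1 lower (80.5 and 1.3%, beside 42.3 and 37.2% of all genes) with a median of 0.27. Their sum went from 35290, 35307 and 34054 to 41624, 42134 and 43230 CPM. With library size alone 66 of the 77 rose and none fell, with a median of 0.44. CPM are relative to the library, and a change in RNA per cell was not tested. Rps27l, a variant known as a p53 target, rose most, from 108, 108 and 104 to 236, 256 and 255 CPM (1.23 ± 0.05). Rplp0, the most abundant, rose from 2645, 2731 and 2457 to 3444, 3466 and 3566 CPM (0.42 ± 0.05), and the elongation factors Eef1a1 (0.36 ± 0.04) and Eef2 (0.20 ± 0.03) were among the 10 largest gains in CPM. Processed copies of ribosomal protein genes share reads with them, so single members are uncertain. Of 37 proteasome subunits 12 rose and 11 fell (32.4 and 29.7%, beside 42.3 and 37.2% of all genes; median 0.03; with library size alone 24 and 5, median 0.19), with the immunoproteasome subunit Psmb9 higher (0.76 ± 0.08) and the constitutive subunit Psmb5 lower (-0.35 ± 0.04).

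Of 23 contractile and SRF genes 21 fell (91.3%, beside 37.2% of all genes) and none rose, with a median of -1.13. Actg1, a cytoplasmic actin, fell from 4759, 6557 and 4977 to 2281, 2350 and 2288 CPM (-1.24 ± 0.08), the largest loss of any gene, followed by Actb from 8206, 7990 and 7894 to 5468, 5676 and 5542 CPM (-0.53 ± 0.04). Vcl, the focal adhesion protein vinculin, fell from 504, 509 and 491 to 134, 132 and 125 CPM (-1.95 ± 0.04). The nonmuscle myosin Myh9 (-1.57 ± 0.04), the tropomyosin Tpm1 (-1.28 ± 0.04), the filamin Flna (-0.95 ± 0.04) and Cald1, caldesmon (-1.84 ± 0.04), fell with it. Of 39 matrix and remodelling genes 23 fell and 10 rose (59.0 and 25.6%, beside 37.2 and 42.3% of all genes; median -0.41). Thbs1, thrombospondin 1, fell from 2778, 2689 and 2564 to 556, 585 and 524 CPM (-2.27 ± 0.05), whereas its relative Thbs2 rose from 4.24, 3.23 and 3.46 to 23.6, 25.1 and 21.8 CPM (2.68 ± 0.09). Plau, the urokinase plasminogen activator, rose from 42.2, 39.5 and 40.6 to 176, 174 and 175 CPM (2.10 ± 0.04), and Fbn1, fibrillin 1, fell from 395, 372 and 399 to 117, 107 and 99.9 CPM (-1.85 ± 0.05). Eln, elastin, was under 1 CPM in all libraries (4.64 ± 0.54, and 5.6 without Null control replicate 3).

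Of 40 tested collagens 21 rose and 14 fell (52.5 and 35.0%, beside 42.3 and 37.2% of all genes), with a median of 0.69, and 12 of the 40 were under the filter's level in control, 10 of them among those that rose, which the filter favours. Of the other 28, 11 rose and 14 fell (39.3% higher, beside 35.5% of all tested genes at that level in each control library). Under a filter at a mean of 1 CPM the members that fell outnumbered those that rose by 4. Col5a2, a fibrillar chain and the most abundant, fell from 1649, 1615 and 1680 to 723, 727 and 714 CPM (-1.19 ± 0.04) and Col5a1 from 407, 395 and 441 to 107, 98.5 and 102 CPM (-2.02 ± 0.05). Col9a3 rose from 0.332, 0.277 and 0.402 to 11.2, 11 and 10.8 CPM (5.03 ± 0.15). Summed over the list the level went from 6163, 5999 and 6332 to 3078, 2979 and 2980 CPM, so the sum fell although more members rose than fell.

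Genes of the YAP pathway mostly fell. Of 19 YAP/TEAD pathway genes and targets 15 fell and 4 rose (78.9 and 21.1%, beside 37.2 and 42.3% of all genes; median -0.41), and Tead1, a transcription factor that carries YAP to DNA, fell from 163, 196 and 176 to 38.4, 38.1 and 35.0 CPM (-2.26 ± 0.09). Cyr61, a much used target of YAP, rose from 814, 863 and 753 to 1353, 1435 and 1444 CPM (0.80 ± 0.07). Of 14 EGF receptor family genes and ligands 7 fell and 2 rose (50 and 14.3%, beside 37.2 and 42.3% of all genes) with a median of -0.14, which is 0.03 with library size alone. Hbegf, a ligand of the EGF receptor, fell from 630, 603 and 545 to 240, 250 and 247 CPM (-1.27 ± 0.04), and Nrg1, neuregulin 1, from 39.5, 39.1 and 38.7 to 6.96, 7.24 and 6.49 CPM (-2.50 ± 0.07). Btc, betacellulin, rose from 1.08, 1.15 and 1.02 to 5.52, 4.91 and 5.56 CPM (2.29 ± 0.13).

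Of 20 clock genes 11 fell and 6 rose (55.0 and 30%, beside 37.2 and 42.3% of all genes), with a median of -0.63, and 2 of those that rose were under the filter's level in control. Per2, a repressor of the clock, fell from 38.2, 36.0 and 41.7 to 7.61, 6.81 and 6.28 CPM (-2.48 ± 0.08), and Bhlhe40, a further repressor, from 144, 141 and 130 to 29.3, 31.5 and 29.7 CPM (-2.20 ± 0.06). Ciart, also a repressor, fell most, from 34.6, 32.7 and 35.6 to 3.06, 2.45 and 2.65 CPM (-3.65 ± 0.09). Nr1d1, a repressor in another loop of the clock, rose from 6.11, 7.21 and 5.33 to 20.4, 16.8 and 17.0 CPM (1.54 ± 0.10), and so did Tef, an activator of clock output and the most abundant of the list (1.41 ± 0.04). Exons of Nr1d1 overlap Thra on the opposite strand. CCAAT was found in 17 of 23 promoters of this list (73.9%) and an E-box in 6 (26.1%). The shares were 37.4 and 7.15% of all promoters and 37.3 and 9.38% of those of genes tested.

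Splicing factors fell by small amounts. Of 22 SR proteins and splicing factors 18 fell and 3 rose (81.8 and 13.6%, beside 37.2 and 42.3% of all genes) with a median of -0.27, and with library size alone 9 fell and 3 rose. Srsf1, the most abundant, fell from 984, 973 and 990 to 628, 658 and 629 CPM (-0.62 ± 0.03), and Tra2b by 0.76 on the log2 scale. Clk1, a kinase that phosphorylates SR proteins, rose from 35.6, 33.6 and 39.0 to 58.2, 57.4 and 52.6 CPM (0.64 ± 0.06). Small nucleolar RNA hosts had 6 of 15 higher and 4 lower (40.0 and 26.7%, beside 42.3 and 37.2% of all genes), with a median of -0.02 that is 0.15 with library size alone. Members higher minus members lower turned to -1 without Null control replicate 1, without Null control replicate 2 and without Null etoposide replicate 2. Gas5, the most abundant, fell from 105, 96.0 and 108 to 66.2, 68.1 and 61.9 CPM (-0.65 ± 0.05). Of 317 zinc finger genes named Zfp, 133 rose and 108 fell (42.0 and 34.1%, beside 42.3 and 37.2% of all genes), with a median of 0.07 equal to that of all genes, and with library size alone 170 and 65. Of the rises 9 were of genes under the filter's level in control. Zfp131, a BTB factor, was among the largest falls of these, from 148, 151 and 147 to 52.6, 54.0 and 49.5 CPM (-1.52 ± 0.04).

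Of 23 tested epidermal genes 17 rose and 3 fell (73.9 and 13%, beside 42.3 and 37.2% of all genes). In 10 of the 23 a control library was under the filter's level, and of the other 13, 9 rose and 3 fell. That is 69.2% higher, beside 35.5% of all tested genes at that level in each control library. Perp, a p53 target of desmosomes and the most abundant, rose from 48.0, 49.5 and 48.3 to 524, 517 and 551 CPM (3.45 ± 0.04, adjusted p = 1.58e-19, the same edgeR test). Evpl, envoplakin of the cornified envelope, rose from 0.393, 0.292 and 0.216 to 88.5, 77.7 and 81.9 CPM (8.06 ± 0.14). Keratins of the basal layer were near absent, with Krt14 at 0 in all controls and 0.329, 0.545 and 0.554 CPM after etoposide and Krt5 under 1 CPM throughout (6.95 ± 0.72, and 8.86 without Null control replicate 1). Trp63, the p53 relative that rules the epidermis, was at 0.688, 0.768 and 0.819 against 0.415, 0.339 and 0.671 CPM (-0.70 ± 0.29), a call lost without Null control replicate 2 or 3 and without Null etoposide replicate 1 or 2, with the last at -0.51 (adjusted p = 0.149, the same edgeR test). Whether Trp63 had a part in the rise of these genes was not tested.

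The largest rises, taken among genes that average 10 CPM or more and have no overlap, were of genes nearly silent in control. Gna15, a G protein subunit of blood cells, went from 0.111, 0.0461 and 0.0154 to 19.9, 21 and 23.8 CPM (8.41 ± 0.20, adjusted p = 2.04e-17, the same edgeR test, with values from 8.00 without Null control replicate 3 to 9.36 without Null control replicate 1). Matn4, a matrilin of the matrix, went from 0.319, 0.277 and 0.124 to 71.0, 63.5 and 67.4 CPM. Zfp750, a regulator of epidermal differentiation, went from 0.160, 0.0922 and 0 to 24, 23.4 and 21.5 CPM (7.97 ± 0.21, from 7.44 without Null control replicate 3 to 8.90 without Null control replicate 1). Control libraries held few counts of these genes, and the fold moves with each of them. Glyat, a mitochondrial acyltransferase, rose from 0.123, 0.123 and 0.0772 to 27.8, 27.9 and 25.1 CPM (7.93 ± 0.16), and Pvrl4, the adhesion protein nectin-4, from 0.111, 0.138 and 0.124 to 29.4, 29.4 and 27.7 CPM (7.85 ± 0.13). Tnfrsf18, a receptor of the TNF family, rose from 0.405, 0.369 and 0.494 to 62.0, 61.5 and 67.8 CPM (7.24 ± 0.09). Also among the 12 were Plch2, a phospholipase C (7.81 ± 0.20), Mab21l3, Svop, a synaptic vesicle protein (7.51 ± 0.18), 1700007K13Rik (7.28 ± 0.14) and the guidance receptor Robo3 (7.21 ± 0.19, from 6.84 without Null control replicate 2 to 8.00 without Null control replicate 1). Their known places of expression differ, from epidermis to neurons and blood.

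The largest falls were drawn under the same conditions. Wisp1, a secreted CCN protein, went from 893, 864 and 871 to 99.4, 103 and 101 CPM (-3.12 ± 0.03, adjusted p = 9.89e-21, the same edgeR test), and its relative Wisp2 from 65.7, 62.6 and 65.4 to 5.92, 6.40 and 7.86 CPM (-3.27 ± 0.07). Pdgfb, the growth factor, fell from 194, 181 and 179 to 17.7, 20.9 and 21.1 CPM (-3.21 ± 0.06). Sema3a, a guidance ligand, fell from 237, 236 and 221 to 32.9, 34.4 and 32.4 CPM (-2.80 ± 0.04). Their etoposide libraries lay far below every control library. Runx2, the bone transcription factor, fell from 55.6, 63.7 and 63.0 to 8.76, 9.13 and 9.23 CPM (-2.75 ± 0.07), with Zfpm2, a cofactor of GATA factors (-2.75 ± 0.07), Hivep3, a zinc finger factor (-3.07 ± 0.10), Samd4, an RNA-binding repressor of translation (-3.00 ± 0.04), Gfod1 (-3.01 ± 0.05) and Agpat9, an acyltransferase of triglyceride synthesis (-2.74 ± 0.07). Exons of Samd4, Runx2, Agpat9 and Tspyl4 overlap other genes on the opposite strand, and those of Hivep3 and Agpat9 on the same strand. Among the largest rises, exons of Matn4, Plch2, Svop and Tnfrsf18 overlap other genes on the opposite strand.

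**Figure D4:**
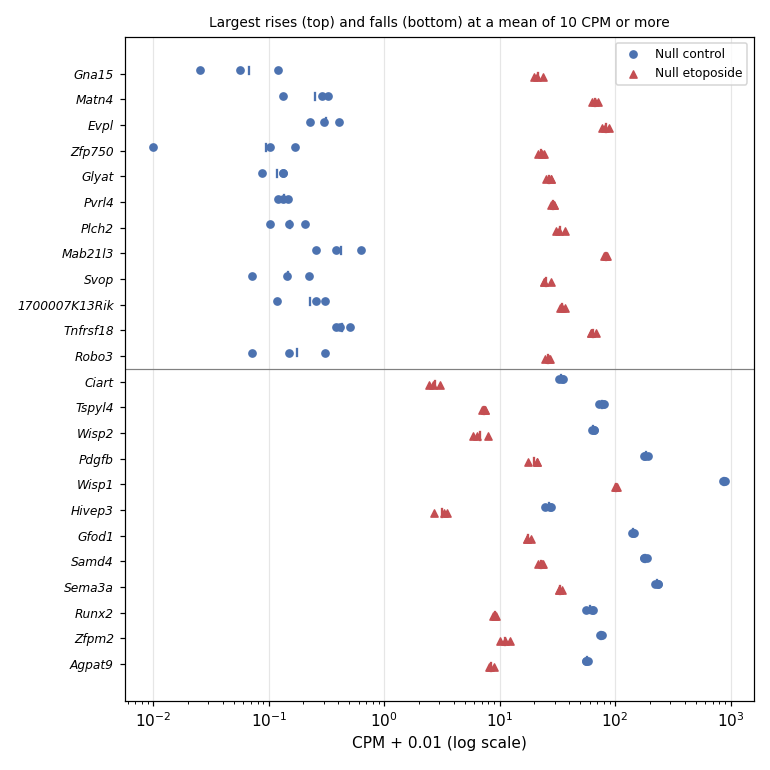
CPM in each Null library of the 12 largest rises (top) and the 12 largest falls (bottom) among called genes that average 10 CPM or more and have no overlap. A value of 0.01 was added for the logarithmic axis. Rises start near 0 in control, and falls end above 1 CPM.

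A stricter class was at or under 3 counts in every control library, past the threshold and at 1 CPM or more after etoposide. It held 118 genes, of which 108 are protein-coding and 6 lincRNA or antisense, and 21 had no control count at all. No gene met the reverse condition. Mst1, shown above with its promoter, had 1, 2 and 0 counts in control and 571, 528 and 360 after etoposide, a ratio of 441 with a 95% counting interval of 150 to 2139 (log2 fold change 8.62, from 8.13 without Null control replicate 3 to 9.51 without Null control replicate 2). Fcgbp, a mucin-like binding protein, had 2, 1 and 1 against 1358, 1104 and 1019 counts, a ratio of 788 (308 to 2895), and 1700003M07Rik 3, 2 and 2 against 1260, 1273 and 1028 counts, a ratio of 461 (223 to 1147). These intervals cover counting error only, and libraries of 1 group differed beyond it (chi-square per degree of freedom 15.5 to 22). Inpp5d, the lipid phosphatase SHIP1 of blood cells, had 3, 1 and 0 against 727, 730 and 619 counts, a ratio of 470 (183 to 1727), and its log2 fold change of 8.75 ran from 8.25 without Null control replicate 3 to 9.88 without Null control replicate 1. Serpinb5, the epithelial serpin maspin, had 0, 0 and 1 against 507, 447 and 487 counts, a ratio of 1305 (234 to 51599), and its log2 fold change of 9.91 ran from 9.36 without Null control replicate 1 to 11.85 without Null control replicate 3. Rai2 had no count in control and 478, 416 and 352 after etoposide. With 3 counts over the controls together put in place of 0, its rise was 376-fold. This value has another basis than the counting intervals. The muscle myosin chaperone Unc45b (ratio 324, 126 to 1192), the carboxypeptidase Cpz (307, 119 to 1127), the pepsinogen Pga5 (567, 157 to 4688) and the carboxylesterase Ces2f (338, 145 to 1043, log2 fold change from 7.93 without Null control replicate 1 to 9.01 without Null control replicate 3) complete the 10 of highest level.

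Longer genes fell more. Over the 15081 genes with coordinates, the rank correlation of log2 fold change with gene span was -0.17, with library size alone also -0.17, and it was -0.19 with summed exon length and -0.13 with the number of exons, a description without a test. Median log2 fold changes ran from 0.20 in genes under 5 kb through 0.04 at 20 to 50 kb to -0.46 at 200 kb and over. The share at least 2-fold lower grew from 6.89 to 32.0% between the shortest and the longest bin, with a low of 3.71% at 10 to 20 kb. The share at least 2-fold higher over all genes was 20.8% in the shortest and 24.8% in the longest bin. Among genes that average 10 CPM or more, a cut chosen after seeing the data, the medians ran from 0.07 to -1.04, the share at least 2-fold lower from 7.52 to 52.3%, and the share at least 2-fold higher from 9.64 to 1.98%. By class, medians were 1.06 in 189 lincRNAs, 0.83 in 165 antisense transcripts, 0.05 in 14176 protein-coding genes and -0.19 in 98 small nucleolar RNAs. At a mean of 10 CPM or more the lincRNA and antisense medians were 0.14 and 0.08, over 20 and 8 genes. Those of protein-coding genes and small nucleolar RNAs turned sign, to -0.15 over 9202 genes and 0.19 over 11. Span, exon length, exon number and level go together, and which of them the falls follow was not tested.

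**Figure D5:**
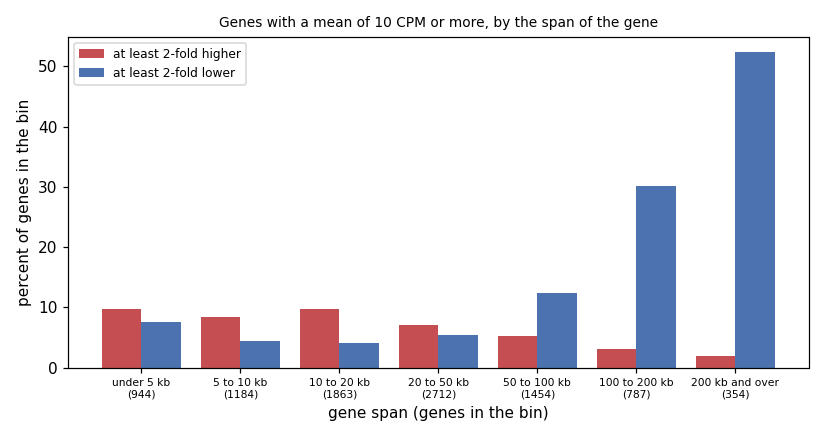
Percent of genes that rose or fell 2-fold or more after etoposide, by gene span, among genes that average 10 CPM or more in the Null libraries. The number of genes in each bin is in brackets. The share that fell grows from 50 kb on.

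The same 40 genes, the largest rises and falls and the p53 and topoisomerase panel, were compared between genotypes through the test of the difference of responses, DKO minus Null. Over all genes this test passed for 54.0%, and of the 40 genes it passed for 34. The difference shares its Null libraries with the response in Null MEFs, by which the largest rises and falls were chosen, and the panel was chosen with earlier results known, so no count of its signs is read as a result. In the panel the largest differences were of Pmaip1 (-3.17), at 0.01 in DKO MEFs by the same fit, and Fas (-3.03), at -0.88 in DKO MEFs. Ccng1 (-1.91), Mdm2 (-1.48) and Trp53inp1 (-1.17) rose less in DKO MEFs, by 2.27, 2.44 and 4.70. Cdkn1a differed by only -0.34. In 5 genes, Pdgfb, Wisp1, Sema3a, Top2b and Myc, the fall was larger in DKO MEFs, and Robo3, Gfod1, Runx2, Trp53, Bbc3 and Top2a were not past the threshold. Trp53 and Gfod1 had differences near 0, whose sign changes between settings. As each genotype was 1 line, these differences hold for the lines.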

How the data were processed

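RNA-Seq counts were used from 12 libraries, 3 in each of 4 groups by genotype and treatment, taken from the labels. The deposited table gives whole counts for each gene as the authors made them, not normalized. The paper names HTSeq for counting and the submitters' notes name featureCounts, with HISAT2 and mm10, and the table's 5 summary lines are written as HTSeq writes them. Tool versions and the strand setting are not given in the sources used here. Library sizes and tests leave out the summary lines. In the 6 Null libraries 53.4 to 58.9% of the table was on genes, on no feature 22.5 to 27.3%, not unique 18.1 to 20.5% and ambiguous 0.428 to 0.513%. 27 symbols written like dates were left as they are. For coordinates, 23350 symbols were found as such in GENCODE M21 (GRCm38) and 658 by a synonym, and 413 have none here.

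The genes that filterByExpr keeps for the 4 groups were scaled by TMM (factors 0.962 to 1.086 in the Null libraries) and fitted with glmQLFit in edgeR 4.0.16 under R 4.3.3, in 1 model of all 12 libraries, so that the DKO libraries share in the estimate of the spread. Contrasts were tested with glmQLFTest, Benjamini-Hochberg adjustment over the 15220 genes and a threshold of 0.05. The design set 2 comparisons, etoposide against control in Null MEFs and the difference of that response between DKO and Null MEFs. Etoposide against control in DKO MEFs was tested in the same fit outside the design, and its log2 fold changes are given for a few genes beside the difference. Standard errors come from each log2 fold change with the F statistic. The design did not say which version of the fit to use. The newer one, without the legacy option, was settled on after both had been run, because an earlier analysis of this table used it, and the older one is an alternative. Libraries of 1 group differed beyond counting noise (chi-square per degree of freedom 15.5 to 22). For 3 libraries against 3 an exact permutation test cannot give a p below 0.1.

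Members and gene lists were chosen with earlier results of these data known. The rule for named genes takes 324 genes: the 12 largest rises and 12 largest falls among called genes that average 10 CPM or more and have no overlap; a panel of 16 genes for the p53 pathway, topoisomerase II, Tfeb, Tfe3 and Myc; in each of 46 gene lists the 3 largest rises, the 3 largest falls and the most abundant gene; the 10 most abundant genes at or under 3 counts in every control library; and the 10 largest gains and losses of CPM. The text describes part of these, some are not reported here, and 8 further genes were named after their values were seen. Most lists are described by their counts, beside the shares of all genes tested, and by their median. No gene of the list for the mitochondrial genome was in the table. Folds against near-empty controls carry an exact 95% counting interval, which takes no account of the spread between libraries.

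Promoters, 32851 for 27025 genes, came from RefSeq and were matched by symbol, which gave 14330 promoters for 11263 of the genes tested. They were searched on both strands for the p53 response element, the CHR, CCAAT, the E-box and the cAMP response element. The last was found in 1.79% of all promoters, 2.9% of those of genes tested and 7.84% of those of G2 and mitosis genes. The allowance for the p53 response element was set when the script was written, after the files were seen.

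Alternatives were DESeq2 size factors, library size alone, DESeq2 1.42.0, limma-trend from limma 3.58.1 with robust estimates, no filter, a filter at a mean of 1 CPM, only the 6 Null libraries, the replicate number as a block, and each Null library left out in turn. The older version of the fit, a fit without Rn45s, Rmrp and Rpph1, the number of exons in place of span and the difference of responses with libraries left out were added after seeing the data, as was the count of genes under the filter's level (10 counts at the median library size) in control. The fits were tested on simulated data.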

Additional observations from a re-analysis of the deposited data

Results flagged for a closer look

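The response to etoposide differed between genotypes, by the test of the difference itself, for 34 of the 40 genes compared, beside 8226 of all 15220 (54.0%), and 24 of the 40 were chosen by their response in the Null libraries, which the difference shares, so nothing particular to them is read from the count. Values are the log2 response in DKO MEFs minus that in Null MEFs. Among the largest rises in Null MEFs they were Gna15 (-2.66), Matn4 (-3.32), Evpl (-5.49), Zfp750 (-2.34), Glyat (-5.33), Pvrl4 (-2.38), Plch2 (-2.96), Mab21l3 (-2.31), Svop (-3.27), 1700007K13Rik (-1.55) and Tnfrsf18 (-2.44). These genes were chosen for the size of their rise in Null MEFs, which favours a smaller rise in DKO MEFs, and the difference shares the Null libraries, so the common sign supports nothing. Among the largest falls, chosen in the same way, they were Ciart (1.59), Tspyl4 (2.88), Wisp2 (0.45), Pdgfb (-0.81), Wisp1 (-0.16), Hivep3 (0.67), Samd4 (0.40), Sema3a (-0.17), Zfpm2 (1.55) and Agpat9 (2.74). In the p53 and topoisomerase panel they were Mdm2 (-1.48), Mdm4 (-0.29), Ppm1d (-0.59), Cdkn1a (-0.34), Ccng1 (-1.91), Trp53inp1 (-1.17), Bax (-0.92), Pmaip1 (-3.17), Fas (-3.03), Tfeb (0.49), Tfe3 (0.28), Top2b (-0.18) and Myc (-0.67). A change in the DKO line other than the edited genes cannot be told apart from them.

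Reads on no feature lie outside the counts that were compared. Their mean share was 26.2% in Null etoposide libraries, above the 23.2% of Null control libraries, and what they hold was not tested.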

How the results depend on the processing

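The number of genes called changed lay between 9855 with the filter at a mean of 1 CPM, which tests fewer genes, and 13252 with no filter. It was 11965 with DESeq2, 11936 with limma-trend, 12100 with DESeq2 size factors, 12199 with library size alone, 11679 with only the 6 Null libraries, and 11871 to 12109 with each Null library left out in turn. With the replicate number as a block it was 12111, of which 6460 higher and 5651 lower. Replicate numbers do not pair the libraries: correlations between the groups for equal numbers were 0.00636, 0.0323 and 0.0274, so the unpaired fit is the one reported. With the older version of the fit it was 11940 and without Rn45s, Rmrp and Rpph1 12105, both chosen after seeing the data. The genes at least 2-fold higher numbered 1563 under the filter at 1 CPM, against 3415, as this filter takes out genes of low level, and 3444 to 3630 with each library left out. The correlation with gene span moved to -0.19 with summed exon length and to -0.13 with the number of exons, the latter chosen after seeing the data. Of 45 gene lists, 25 had more members higher than lower, and 23 to 26 did so under the alternatives. The difference of responses passed for 33 to 35 of the 40 genes.

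Some values changed direction, and the cause was not tested. Members higher minus members lower went, for damage sensors and checkpoint kinases, to 5 with library size alone and 2 under the filter at 1 CPM, for collagens to -4 under that filter, and for small nucleolar RNA hosts to -1 without Null control replicate 1, without Null control replicate 2 and without Null etoposide replicate 2. With library size alone Cdk4 was at 0.12, Nfkb2 at 0.04, Hexa at 0.00 and Calr at 0.06, and Cdk4 was at 0.00 with DESeq2 size factors and 0.04 under the filter at 1 CPM. Psap and Atp5b, both at 0.00, were at -0.03 each with no filter and -0.01 each without Rn45s, Rmrp and Rpph1. With each library left out in turn Psap ran from -0.03 to 0.01, at -0.02 without Null control replicate 2, -0.01 without Null control replicate 3 and -0.03 without Null etoposide replicate 3. Atp5b ran from -0.02 to 0.01, at 0.00, -0.02 and -0.01 without Null control replicates 1, 2 and 3 and 0.00 and -0.02 without Null etoposide replicates 2 and 3. With each library left out Ifi27 ran from -0.04 without Null etoposide replicate 3 to 0.09, and Malat1 from -0.01 without Null etoposide replicate 1 to 0.39. The difference of responses for Gfod1 (0.04) was at -0.03 with DESeq2 size factors, -0.03 with DESeq2 and -0.01 under the filter at 1 CPM, and that for Trp53 (-0.02) at 0.08 with library size alone and from -0.06 to 0.01, the latter without Null control replicate 2, with each library left out. In all, 5192 of 5279 values of named genes kept their direction and their side of the threshold, 49 fell short of it, 18 newly passed it and 20 changed direction. Depth limits the genes with few control counts, whose folds move with single libraries.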

Other observations

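Genes grouped by their largest number of exons gave medians of 0.03 in 645 genes of 1 exon, 0.32 in 667 genes of 2, 0.28 at 3 to 4, 0.12 at 5 to 9, -0.04 at 10 to 19 and -0.19 in 2266 genes of 20 or more. Processed transcripts, 155 in number, had a median of 0.59 and 96 microRNA genes one of -0.09. At a mean of 10 CPM or more both turned sign, to -0.19 over 24 genes and 0.43 over 2.

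Members of the lists that the report does not describe moved as follows. Zfp521, a zinc finger factor of progenitor cells, fell from 22.5, 22.3 and 20.9 to 4.89, 5.97 and 6.36 CPM (-1.94 ± 0.08). The collagens Col11a1 (-2.11 ± 0.07) and Col8a1 (-1.99 ± 0.05) fell with those described, and so did Fbn2, a fibrillin (-2.10 ± 0.12). Fhl2, a cofactor of SRF, fell from 269, 261 and 261 to 68.1, 68.0 and 75.4 CPM (-1.90 ± 0.05), and Errfi1, an inhibitor of the EGF receptor, from 585, 541 and 501 to 182, 183 and 185 CPM (-1.57 ± 0.05). Fdps, of sterol synthesis, fell from 334, 278 and 342 to 82.3, 82.7 and 94.3 CPM (-1.88 ± 0.07). Ndufa4l2, a hypoxia-induced relative of a complex IV subunit, rose from 0.283, 0.154 and 0.124 to 10.6, 10.7 and 12.5 CPM (5.85 ± 0.23), and Npas2, a relative of CLOCK, from 0.0246, 0 and 0.0309 to 0.683, 0.920 and 0.758 CPM (5.26 ± 0.61). All of these groups of libraries are without overlap, as are those of 80.2% of all genes tested.

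The 100 most abundant genes took 18.0, 18.7 and 18.4% of the counts on genes in Null control libraries and 20.9, 20.6 and 20.8% in Null etoposide libraries, with Rn45s included.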
